A study of Homo sapiens with 6 samples.

Results

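The genes described here are heat shock factor 1 (HSF1) and 9 cytosolic chaperones or chaperone partners, namely HSPA8, HSPA1A, HSPA1B, HSPH1, BAG3, DNAJB1, HSP90AA1, HSP90AB1 and HSPB1. They were taken by gene symbol, with earlier results of these data known, and are 10 of the 23180 gene symbols in the RNA-Seq counts. Each symbol was read from its transcript with the largest count summed over all samples. The cells were A549, an established human lung adenocarcinoma line of alveolar epithelial origin, labelled as wild-type and as passage 11. The 3 siControl samples received a control siRNA. The 3 siKMT9α samples received siKMT9α#1, a single siRNA sequence against the α subunit of the heterodimeric histone methyltransferase KMT9, which places the mono-methyl mark on lysine 12 of histone H4. According to the methods both siRNAs were used at 65 nM, and total RNA was taken 3 days after transfection. The methods name no heat or other added stress for these samples. The comparison asks how the transcriptome of these cells differs after transient knock-down of KMT9α. It rests on 1 cell line, and the labels call the samples biological replicates without saying how the cultures were separated, so p-values measure the spread between these samples only.

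HSF1 is the transcription factor that switches on chaperone genes when proteins misfold. In resting cells it is held inactive by chaperones, among them HSP90 and HSP70 with J-domain proteins. On stress it forms trimers, enters an active state and binds heat shock elements, which are inverted repeats of the letters GAA. The chaperones divide the work. HSP70 proteins bind exposed hydrophobic stretches in a cycle driven by ATP, J-domain proteins deliver substrates and start ATP hydrolysis, exchange factors release the nucleotide, HSP90 matures kinases and steroid receptors, and small heat shock proteins hold unfolded proteins without ATP. Tumour cells often keep much of this machinery expressed without heat.

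Total counts over the transcripts kept were 15551778 to 18568639.5 for siControl and 13740097 to 19832395.5 for siKMT9α. Levels are given as CPM, counts scaled to the library total and by TMM factors, and log2 fold changes are siKMT9α against siControl. The targeted gene, N6AMT1, which encodes KMT9α, had 10.2, 10.9 and 11.4 CPM in the siControl samples and 2.87, 3.22 and 3.35 CPM in the siKMT9α samples, so every library matched its label (log2 fold change −1.77, SE 0.12, adjusted p = 1.43e-10). Of 8 markers of A549 and epithelial cells, 8 reached 1 CPM in at least 1 sample, and their summed level was 6862 to 7217 CPM with siControl and 5482 to 5597 CPM with siKMT9α. EPCAM was low, at 3.46 to 4.25 CPM and 0.44 to 0.76 CPM. These markers did not all move together. CDH1 was higher with siKMT9α, at 7.82 to 9.68 CPM against 2.35 to 4.25 CPM. ALDH1A1 was higher too, at 3087 to 3236 CPM against 1874 to 2020 CPM. KRT8, KRT18, KRT19, AKR1B10 and AKR1C1 were lower, as was EPCAM. None of 4 surfactant genes of alveolar type II cells reached 1 CPM, and SFTPA1 and SFTPA2 were at 0. Fibroblast markers (2 of 6 at 1 CPM, COL1A2 at 0) summed to 6.92 to 8.71 CPM and 3.22 to 3.92 CPM. Endothelial markers (0 of 3 at 1 CPM) summed to 0.47 to 0.80 CPM and 0.08 to 0.16 CPM. Leukocyte markers (2 of 5 at 1 CPM, CD3E at 0) summed to 81.5 to 88.3 CPM and 28.9 to 30.2 CPM, nearly all of it CD68, a lysosomal protein. The part of these marker differences in the results was not tested. All samples come from 1 cultured line. In its bulk RNA, fewer cells with a transcript and less of it per cell cannot be told apart.

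The promoters of the chaperone genes were read first, because the heat shock element is what the HSF1 targets share in sequence. RefSeq (GRCh38.p14) windows of 300 bases, from 250 bases before to 50 after each annotated start, were found for 9 of the 10 genes, 14 windows in all, and none was found for HSF1. The search took GAANNTTC and TTCNNGAA as 2 adjacent units and GAANNTTCNNGAA and TTCNNGAANNTTC as 3 units. The letters of the 2-unit motifs are the same on both strands, and the 3-unit motifs are each other's reverse complement. A 3-unit match contains overlapping 2-unit matches. The 5 stretches printed here are the 250 bases before the start on the gene's own strand, with every match in capitals. They were chosen to show an inducible HSP70 (HSPA1A at chr6:31815293-31815542, plus strand), the constitutive HSP70 (HSPA8 at chr11:123062137-123062386, minus strand), the J-domain protein (DNAJB1 at chr19:14518398-14518647, minus strand), the inducible HSP90 (HSP90AA1 at chr14:102087045-102087294, minus strand) and the small heat shock protein (HSPB1 at chr7:76302423-76302672, plus strand).
HSPA1A: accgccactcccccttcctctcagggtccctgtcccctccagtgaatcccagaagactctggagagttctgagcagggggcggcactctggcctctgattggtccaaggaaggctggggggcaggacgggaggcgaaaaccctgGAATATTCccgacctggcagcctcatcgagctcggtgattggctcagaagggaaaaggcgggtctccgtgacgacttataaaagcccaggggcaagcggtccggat
HSPA8: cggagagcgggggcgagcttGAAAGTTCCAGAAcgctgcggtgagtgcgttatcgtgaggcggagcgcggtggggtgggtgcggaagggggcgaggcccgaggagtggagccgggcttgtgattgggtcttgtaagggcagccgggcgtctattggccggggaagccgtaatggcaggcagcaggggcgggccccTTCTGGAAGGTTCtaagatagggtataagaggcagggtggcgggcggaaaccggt
DNAJB1: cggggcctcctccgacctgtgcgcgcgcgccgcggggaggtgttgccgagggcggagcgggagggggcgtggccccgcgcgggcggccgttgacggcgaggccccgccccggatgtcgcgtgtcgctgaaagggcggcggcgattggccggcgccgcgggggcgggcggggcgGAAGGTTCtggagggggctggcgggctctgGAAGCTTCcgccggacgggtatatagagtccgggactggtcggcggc
HSP90AA1: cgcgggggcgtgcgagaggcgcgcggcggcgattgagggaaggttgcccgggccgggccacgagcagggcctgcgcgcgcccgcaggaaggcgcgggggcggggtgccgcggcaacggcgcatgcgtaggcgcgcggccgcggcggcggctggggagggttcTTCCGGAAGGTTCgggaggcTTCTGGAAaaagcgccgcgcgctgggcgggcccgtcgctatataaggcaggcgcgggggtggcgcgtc
HSPB1: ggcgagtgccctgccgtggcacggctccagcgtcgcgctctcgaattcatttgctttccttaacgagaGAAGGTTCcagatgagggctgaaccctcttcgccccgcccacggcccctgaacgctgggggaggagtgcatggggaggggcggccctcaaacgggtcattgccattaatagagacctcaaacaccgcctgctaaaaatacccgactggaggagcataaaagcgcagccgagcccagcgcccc

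A 2-unit match lay in 8 of the 14 windows, from 7 of the 9 genes with a window. Of all 35116 RefSeq windows, 13.5% held one, and among tested genes with a window the share was 13.8%. A 3-unit match lay in 1 window each of HSPA8, HSP90AA1 and HSP90AB1, against 0.49% of all windows and 0.553% of tested genes. In HSPA8 the 3-unit matches began at −230 and −55 relative to the start, and in HSP90AB1 at −165 and −112. HSP90AA1 had a 3-unit match at −88 and a separate 2-unit match at −68. The single matches of HSPA1A and HSPA1B began at −106 and −105, and that of HSPB1 at −182. In the second of its 3 windows DNAJB1 had matches at −77 and −47, and in the first it had a 2-unit match that began at 1, just after the start. No match was found in the windows of HSPH1 and BAG3, which says only that these letters are not in those 300 bases. The genes with matches held the member that was higher with siKMT9α, members that were lower, and both HSP90 genes.

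**Figure D1:**
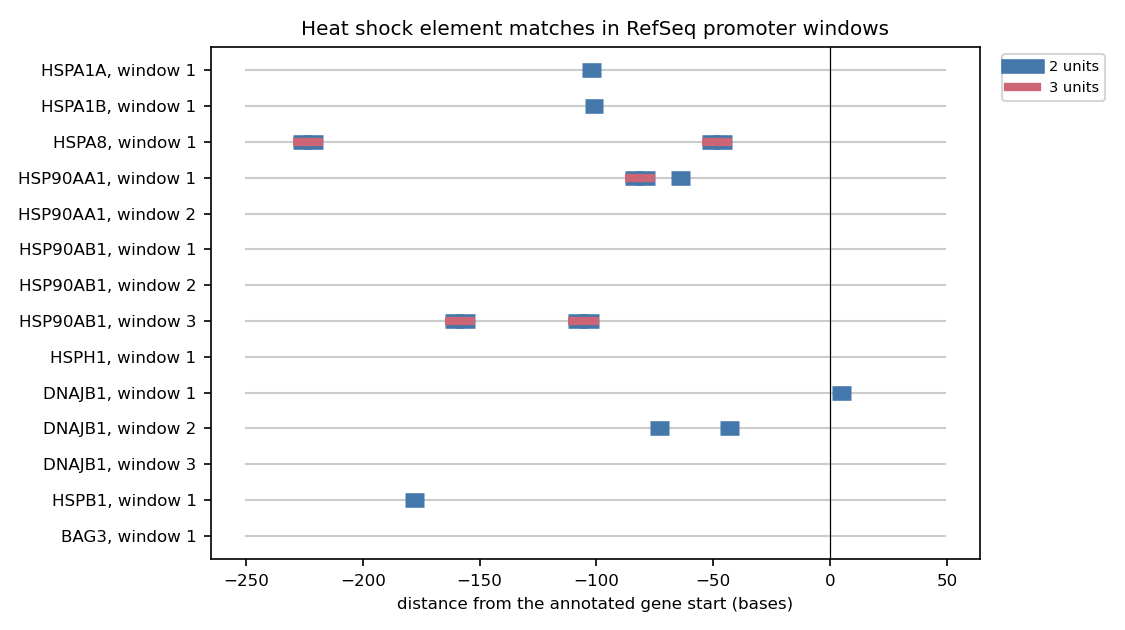
Heat shock element matches in the 14 RefSeq promoter windows of 9 genes; the x axis is the distance from the annotated gene start in bases and each line is 1 window. Wide blue bars are 2-unit matches and narrow red bars 3-unit matches, and 8 of the 14 windows hold a match.

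With siKMT9α, most of these chaperone transcripts were lower, DNAJB1 was higher, and the HSP90 pair stayed close to its siControl level. The largest decreases were in HSPB1 (2.80-fold lower), HSPA1B (2.52-fold lower) and HSPA1A (2.45-fold lower), while the J-domain gene DNAJB1 was 1.86-fold higher. All 10 genes passed the filter on low counts. At an adjusted p below 0.05, 8 of the 10 genes were called, 1 higher and 7 lower. In the same comparison 75.6% of the 13877 genes tested were called, 37.1% higher and 38.5% lower. At a stricter threshold, which asks for an unadjusted p below 1e-08 and a log2 fold change beyond 0.26 in either direction, 7 of the 10 were called, 1 higher and 6 lower, beside 24.2% of all genes tested (13.5% higher and 10.7% lower). The 3 samples of a group lay wholly above or below those of the other for 9 of the 10 genes, beside 77.0% of all genes tested. The two-sided exact permutation test gave p = 0.1 for each of these 9, the smallest value that 3 samples against 3 can give. The share called at the adjusted threshold was thus near the background. The share at the stricter threshold was not compared with genes of similar level. In siControl CPM the 10 genes stood above 74.8% (DNAJB1) to 99.9% (HSPA8) of the genes tested. The median log2 fold change of the 10 genes was −0.63, against −0.01 over all genes tested, and the median absolute log2 fold change was 0.74 against 0.47. HSPA1A and HSPA1B share most of their sequence, so they are not independent members of these counts.

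**Figure D2:**
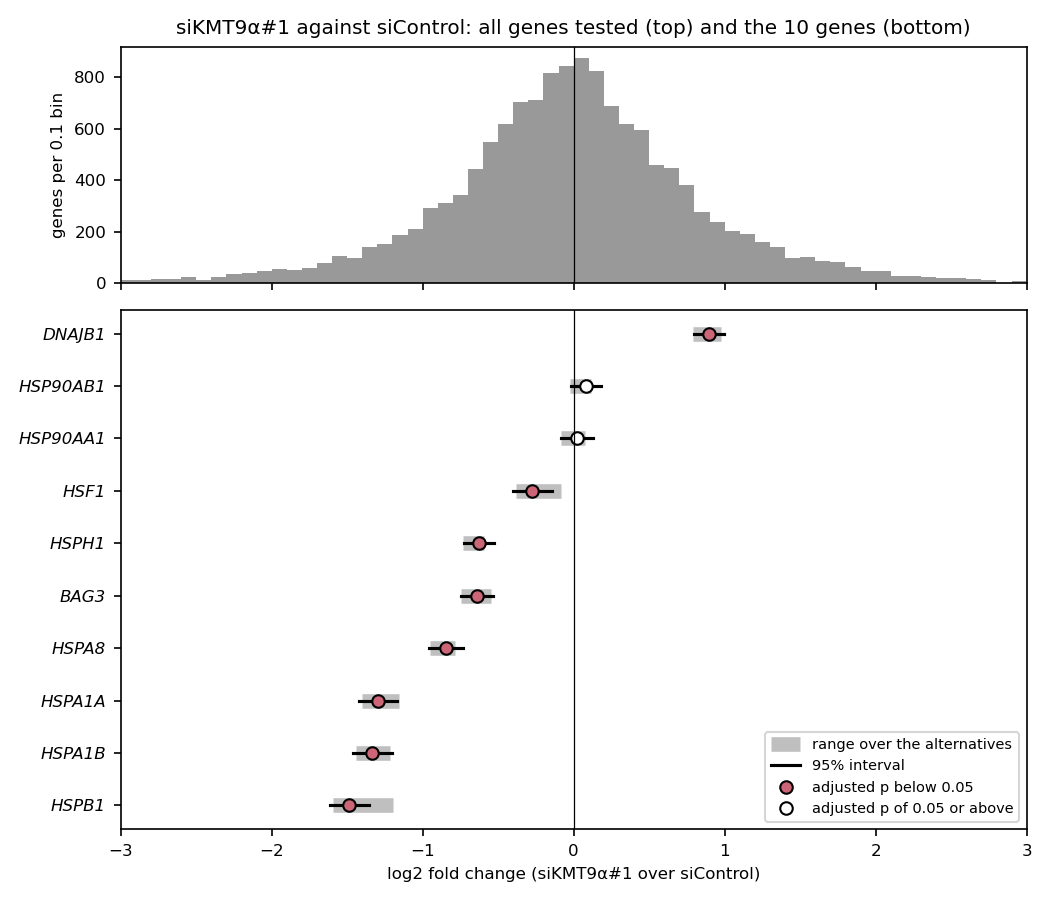
Log2 fold changes of siKMT9α#1 over siControl (x axis), as a histogram of genes tested per bin of 0.1 between −3 and 3 (top) and for the 10 genes (bottom). Points are the estimates, filled where the adjusted p was below 0.05, black lines are 95% confidence intervals, and grey bars span the values under all alternative analyses. DNAJB1 lies alone to the right at 0.89, the HSP90 genes lie near 0, and HSPB1 lies farthest left at −1.49.

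HSF1 itself was slightly lower. It is listed as transcript NM_005526 on chromosome 8 of hg19, from 145515270 to 145538385 on the plus strand, and is annotated as protein-coding. It had 69.2, 78.1 and 77.9 CPM with siControl and 67.0, 60.8 and 58.8 CPM with siKMT9α. The groups did not overlap, but siControl replicate 1 lay close above siKMT9α replicate 1. The means were 75.1 ± 5.06 and 62.2 ± 4.28 CPM (SD, n = 3 each), or 1.21-fold lower with siKMT9α (log2 fold change −0.27, SE 0.06, 95% confidence interval −0.40 to −0.14, adjusted p = 5.32e-04). This did not pass the stricter threshold, and 35.1% of the genes tested had a lower log2 fold change. The call did not hold in every analysis. The HSF1 transcript holds 63.9% GC, and with each sample corrected for GC content and transcript length its log2 fold change was −0.085 with an adjusted p of 0.13. The parts of GC content and length in this were not told apart. The span of HSF1 overlaps that of DGAT1, an enzyme of triglyceride synthesis, and strand use in the counting was not stated. DGAT1 moved the other way, from 16.3, 15.3 and 17.2 CPM to 19.3, 19.9 and 19.2 CPM (log2 fold change 0.25, adjusted p = 0.00679). HSF2, the related factor that can form mixed trimers with HSF1, had 29.1, 29.9 and 31.6 CPM with siControl and 27.7, 34.4 and 34.3 CPM with siKMT9α, with overlapping groups (log2 fold change 0.10, adjusted p = 0.272). With the same correction for GC content and length HSF2 passed the threshold (0.17, adjusted p = 0.0274), and scaled by library size alone it stood at −0.010 (adjusted p = 0.914).

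The HSP70 genes fell. HSPA8 encodes the constitutive HSP70 (HSC70), which folds nascent chains and uncoats clathrin vesicles. Its transcript NM_006597 lies on chromosome 11 of hg19 from 122928200 to 122932901 on the minus strand. HSPA8 had 2535, 2311 and 2422 CPM with siControl and 1298, 1311 and 1434 CPM with siKMT9α. The lowest siControl sample stood far above the highest siKMT9α sample. The means were 2422 ± 112 and 1348 ± 74.8 CPM (SD, n = 3 each), a 1.80-fold decrease (log2 fold change −0.85, SE 0.05, 95% confidence interval −0.96 to −0.73, adjusted p = 3.92e-11). Its second listed transcript, NM_153201, gave −0.86, beside −0.84 for NM_006597 in the same fit of every transcript. Both entries belong to the same gene and can hold the same reads, so they are not independent readings. HSPA8 has many processed pseudogenes, and 12.8% of its 50-base windows also occur in transcripts of other genes.

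HSPA1A and HSPA1B encode the stress-inducible HSP70, with nearly the same protein from neighbouring single-exon genes. They lie on the plus strand of chromosome 6 of hg19, HSPA1A (NM_005345) from 31783291 to 31785719 and HSPA1B (NM_005346) from 31795512 to 31798031. Of all 50-base windows of HSPA1A, 75.1% occur unchanged in HSPA1B, and of those of HSPA1B, 71.6% occur in HSPA1A, so their separate levels depend on how the counting assigned shared reads. HSPA1A had 131.9, 124.5 and 138.0 CPM with siControl and 51.4, 50.4 and 58.4 CPM with siKMT9α. HSPA1B had 93.1, 89.2 and 98.8 CPM with siControl and 37.5, 34.1 and 39.6 CPM with siKMT9α. In both genes the groups were widely separated. HSPA1A fell 2.45-fold (log2 fold change −1.29, SE 0.06, 95% confidence interval −1.42 to −1.17, adjusted p = 2.90e-13). HSPA1B fell 2.52-fold (−1.33, SE 0.06, 95% confidence interval −1.46 to −1.21, adjusted p = 2.80e-13). Summed into 1 gene before the fit, the pair had a log2 fold change of −1.31. Their log2 fold changes were lower than those of all but 6.48% and 6.02% of the genes tested.

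The inducible HSP70 genes decreased more than the constitutive one. Per transcript length, the sum of HSPA1A and HSPA1B was 0.0829, 0.0863 and 0.0913 of the HSPA8 level in the siControl samples. With siKMT9α the ratios were 0.0639, 0.0602 and 0.0638. The groups did not overlap. The mean ratio went from 0.0868 ± 0.0042 to 0.0626 ± 0.0021 (SD, n = 3 each), a log2 difference of −0.47. The two-sided exact permutation test gave p = 0.1, the smallest possible here. This ratio is taken within each library and needs no scaling between libraries. It still depends on how reads shared with other genes were counted. It was not corrected for GC content, which is 59.8% in HSPA1A, 58.8% in HSPA1B and 43.6% in HSPA8. With offsets for GC content and length, the log2 fold changes were −1.16 for HSPA1A, −1.22 for HSPA1B and −0.79 for HSPA8.

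**Figure D3:**
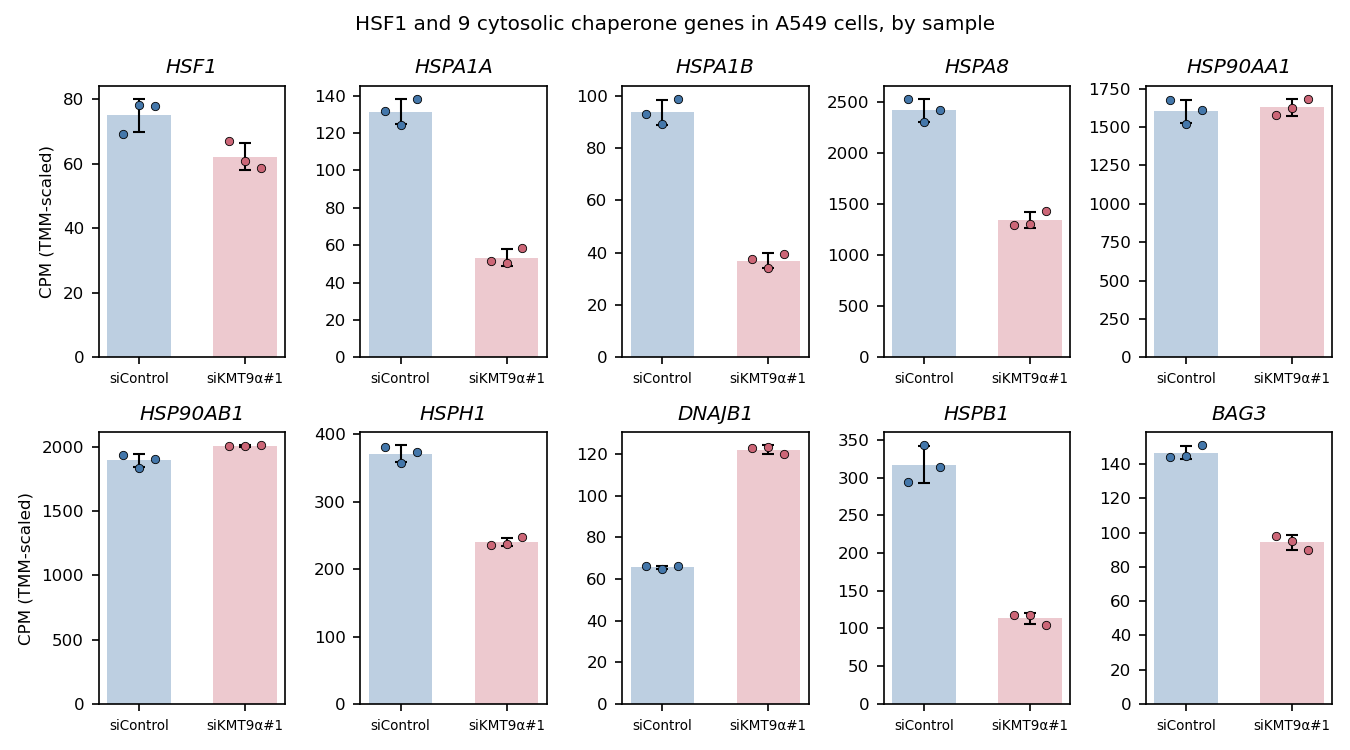
Levels of HSF1 and the 9 chaperone genes in each sample, in TMM-scaled CPM (y axis, from 0), for siControl (blue) and siKMT9α#1 (red); points are samples, bars are means and error bars are SD (n = 3). All panels but those of HSP90AA1, HSP90AB1 and DNAJB1 show the siKMT9α#1 samples below the siControl samples, DNAJB1 shows them above at 119.9 to 123.6 CPM, HSP90AB1 shows them slightly above, and HSP90AA1 overlaps.

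Both exchange factors among the 10 genes fell by similar amounts. HSPH1 encodes HSP110, a large HSP70 relative that speeds nucleotide release from HSP70 and works with it in pulling apart aggregates. Its transcript NM_006644 lies on chromosome 13 of hg19 from 31710763 to 31736117 on the minus strand. HSPH1 had 382.0, 358.3 and 374.6 CPM with siControl and 236.0, 237.4 and 247.4 CPM with siKMT9α, with no overlap. Its means were 372 ± 12.1 and 240.2 ± 6.26 CPM (SD, n = 3 each), a 1.55-fold decrease (log2 fold change −0.63, SE 0.05, 95% confidence interval −0.73 to −0.53, adjusted p = 3.90e-10). BAG3 encodes the BAG-domain exchange factor that links HSP70 to small heat shock proteins and to autophagy of damaged proteins. Its transcript NM_004281 lies on chromosome 10 of hg19 from 121410882 to 121437329 on the plus strand. BAG3 had 144.2, 144.7 and 150.9 CPM with siControl and 98.2, 95.1 and 89.7 CPM with siKMT9α, again with no overlap. It fell 1.56-fold, from 146.6 ± 3.70 to 94.3 ± 4.32 CPM (SD, n = 3 each; log2 fold change −0.64, SE 0.05, 95% confidence interval −0.74 to −0.53, adjusted p = 7.26e-10). Neither gene shares a 50-base window with another gene (0% of windows). Each can lose the stricter call. HSPH1 had an unadjusted p of 1.015e-08 without siKMT9α replicate 2, and BAG3 had 1.217e-08 with the replicate number as a block.

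DNAJB1 moved in the opposite direction to its HSP70 partners. It encodes the J-domain protein (HSP40) that stimulates HSP70 ATP hydrolysis and helps to hold HSF1 inactive, and it is itself among the classical heat-induced genes. Its transcript NM_006145 lies on chromosome 19 of hg19 from 14625582 to 14629201 on the minus strand. DNAJB1 had 66.2, 64.9 and 66.1 CPM with siControl and 123.0, 123.6 and 119.9 CPM with siKMT9α. The samples of each group were close together and the groups were far apart. The mean rose 1.86-fold, from 65.7 ± 0.71 to 122.2 ± 2.02 CPM (SD, n = 3 each; log2 fold change 0.89, SE 0.05, 95% confidence interval 0.79 to 0.99, adjusted p = 2.11e-12). Of the genes tested, 88.1% had a lower log2 fold change. Over all alternative analyses its log2 fold change stayed between 0.79 and 0.98. Only 2.6% of its 50-base windows occur in another gene.

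Neither cytosolic HSP90 gene passed the test. HSP90AA1 encodes the stress-inducible HSP90α and HSP90AB1 the constitutive HSP90β, which together mature many kinases and receptors. HSP90AA1 (NM_005348) lies on chromosome 14 of hg19 from 102547075 to 102553512 on the minus strand, and HSP90AB1 (NM_007355) on chromosome 6 from 44214849 to 44221614 on the plus strand. HSP90AA1 had 1673, 1522 and 1609 CPM with siControl and 1577, 1624 and 1683 CPM with siKMT9α, so the groups overlapped. Its log2 fold change was 0.024 (SE 0.051, 95% confidence interval −0.083 to 0.13, adjusted p = 0.684), and it was −0.082 when scaled by library size alone. HSP90AB1 had 1938, 1839 and 1909 CPM with siControl and 2006, 2004 and 2012 CPM with siKMT9α. These groups did not overlap, but the gap was small beside the level. Its log2 fold change was 0.083 (SE 0.047, 95% confidence interval −0.017 to 0.18, adjusted p = 0.122), and −0.023 with library size alone. The HSP90AB1 call turned on the analysis, with adjusted p = 0.0463 in DESeq2 (log2 fold change 0.095) and 0.0487 without siControl replicate 1 (0.12). The lower bounds of both intervals lie well above the log2 fold change of HSPA8.

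The ratio of the HSP90 genes was similar in both groups. HSP90AA1 per HSP90AB1, by transcript length, was 0.650, 0.623 and 0.634 with siControl and 0.592, 0.610 and 0.629 with siKMT9α. The groups overlapped, with means of 0.636 ± 0.013 and 0.610 ± 0.019 (SD, n = 3 each). The log2 difference was −0.059 (two-sided exact permutation p = 0.2). Of the 50-base windows of HSP90AA1 and HSP90AB1, 19.1% and 19.7% occur in other genes.

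HSPB1 had the largest decrease among the 10 genes. It encodes HSP27, a small heat shock protein that forms large oligomers, holds unfolded proteins and binds actin. Its transcript NM_001540 lies on chromosome 7 of hg19 from 75931875 to 75933614 on the plus strand. HSPB1 had 293.6, 342.5 and 314.3 CPM with siControl and 117.3, 117.8 and 104.7 CPM with siKMT9α, groups that lay far apart. Its mean fell 2.80-fold, from 316.8 ± 24.5 to 113.3 ± 7.41 CPM (SD, n = 3 each; log2 fold change −1.49, SE 0.06, 95% confidence interval −1.61 to −1.36, adjusted p = 4.57e-14). Only 4.76% of the genes tested had a lower log2 fold change. Its transcript is GC-rich (65.5%), and with offsets for GC content and length and the replicate block the log2 fold change was −1.20. Of its 50-base windows, 12.8% occur in other genes.

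Compared per kilobase of transcript, the order of levels among the genes changed at several places. With siControl, HSPA8 led at 1053 ± 48.7 CPM per kb, ahead of HSP90AB1 at 754 ± 20.1 and HSP90AA1 at 479 ± 22.6 (SD, n = 3 each). With siKMT9α, HSP90AB1 led at 798 ± 1.69 CPM per kb, ahead of HSPA8 at 586 ± 32.5 and HSP90AA1 at 487 ± 15.9. HSPB1 and HSPH1 followed next, in that order, in both groups. DNAJB1 was the lowest of the 10 with siControl, at 29.5 ± 0.32 CPM per kb, and stood directly behind HSPH1 with siKMT9α, at 54.8 ± 0.90. HSPA1A and HSPA1B became the lowest, at 22.0 ± 1.79 and 14.7 ± 1.10 CPM per kb. Other genes hold 75.1% and 73.6% of their 50-base windows unchanged, so their separate levels and ranks in both groups are less certain. Whether reads from such windows were lost or divided was not tested. With siControl the neighbours BAG3 (57.2 ± 1.44) and HSPA1A (54.1 ± 2.78) overlapped, as did HSPA1B (37.2 ± 1.92) and HSF1 (35.3 ± 2.38). With siKMT9α no neighbours in the order overlapped.

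The level of the 9 chaperone genes, summed per length, was 2984, 2846 and 2933 CPM per kb with siControl and 2160.0, 2177 and 2241 CPM per kb with siKMT9α. The siKMT9α mean, 2192 ± 42.7, was 75.1% of the siControl mean, 2921 ± 69.9 (SD, n = 3 each). This percentage rests on TMM scaling, and the sum was not computed with library size alone or with offsets for GC content and length. The make-up of this sum shifted from HSP70 towards HSP90. HSPA8 made up 36.0 ± 0.82% of it with siControl and 26.7 ± 0.96% with siKMT9α. HSP90AB1 made up 25.8 ± 0.09% and 36.4 ± 0.64%, and HSP90AA1 16.4 ± 0.38% and 22.2 ± 0.33%. The share of HSPB1 was 12.2 ± 1.24% and 5.80 ± 0.48%. DNAJB1 went from 1.01% to 2.50%, while HSPA1A went from 1.85% to 1.00% and HSPA1B from 1.27% to 0.67%. The separate shares of HSPA1A and HSPA1B are less certain, because most of their sequence is common to both. All shares given here are a description of RNA, with no test over the members.

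**Figure D4:**
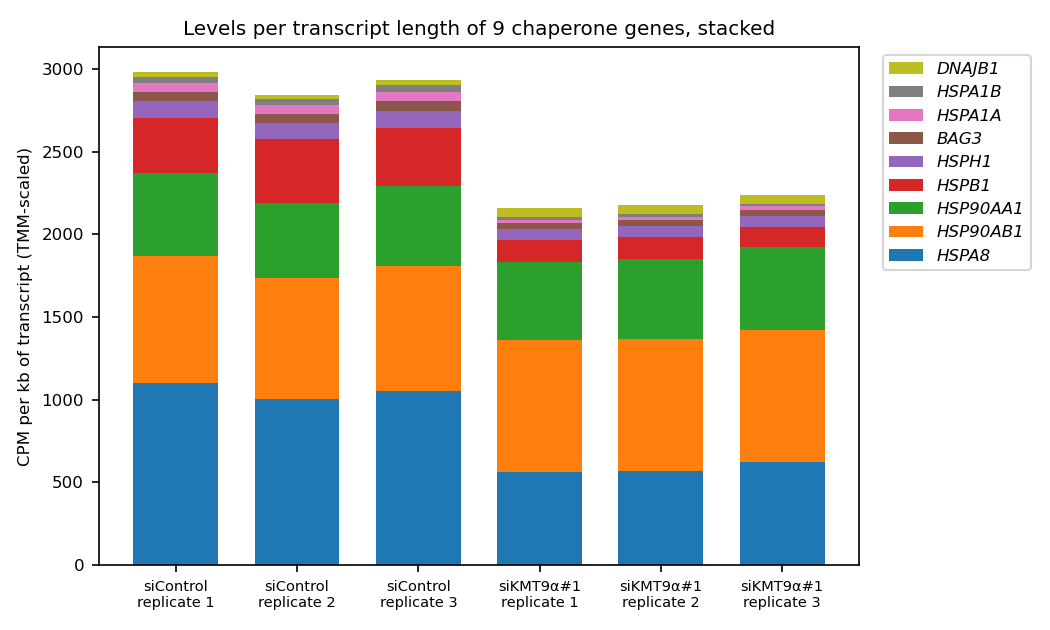
Levels of the 9 chaperone genes in each sample, stacked, in TMM-scaled CPM per kb of transcript (y axis, from 0). The 3 siControl stacks reach 2846 to 2984 and the 3 siKMT9α#1 stacks 2160.0 to 2241, with smaller HSPA8 and HSPB1 segments and HSP90 segments of similar height.

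The rest of the chaperone network was read from 10 lists with 111 genes, of which 102 were tested. Of these, 32 were higher, 46 were lower and 24 did not pass the adjusted threshold, and at the stricter threshold 12 were higher and 19 lower. Of all genes tested, 37.1% were higher and 38.5% lower at the adjusted threshold, and 13.5% and 10.7% at the stricter one, so the share of list genes called at the adjusted threshold was near the background of 75.6%. The counts of single lists are read against the same shares. The median log2 fold change of the list genes was −0.06, against −0.01 over all genes tested. Scaling by library size alone shifted the median of all genes to −0.12 and gave 24 higher and 53 lower in the lists, while offsets for GC content and length gave 36 higher and 40 lower. Among all genes tested, 49.1% of the calls were higher with TMM and 41.2% with library size alone.

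Genes around HSF1 moved in both directions. Among heat shock factors and their direct binding regulators (8 of 9 tested), 1 was higher and 2 were lower, with a median log2 fold change of −0.01, and 3 were higher and 3 lower with offsets for GC content and length. HSBP1, a small protein that binds HSF1 trimers, fell from 221.1 to 158.4 CPM (log2 fold change −0.48) and its relative HSBP1L1 fell by 0.57 on the log2 scale, while DAXX, a nuclear protein that binds HSF1, rose by 0.46. Among 12 modifiers of HSF1, 7 were higher and 2 lower (median 0.17). PLK1, a mitotic kinase that phosphorylates HSF1, rose from 2.83 to 18.8 CPM (2.73), SIRT1, the deacetylase that prolongs HSF1 binding, rose by 0.81 and the acetyltransferase gene CREBBP by 0.77. HDAC6, a cytosolic deacetylase that senses ubiquitinated aggregates, fell from 33.3 to 16.5 CPM (−1.01), and the stress kinase gene MAPK8 fell by 0.73.

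Among the other HSP70 and HSP110 genes, 3 were higher and 4 lower of 8 tested (median −0.17). HSPA4, an HSP110 family member like HSPH1, rose from 317.8 to 551.8 CPM (log2 fold change 0.80, adjusted p = 6.11e-12), opposite to HSPH1. HSPA14, a ribosome-bound HSP70, rose by 1.01. HSPA4L rose by 0.14, a call that library size alone did not keep (log2 fold change 0.04, adjusted p = 0.541). HSPA6, the strictly heat-inducible HSP70, was low and fell from 7.83 to 3.83 CPM (−1.03, adjusted p = 1.42e-06), and it shares 45.8% of its windows with HSPA7. HSPA1L, the testis-type neighbour of HSPA1A, fell by 0.95 from 1.56 CPM, and HSPA2 fell by 0.83. HSPA1L also holds some windows of HSPA1A and HSPA1B, and the part of shared reads in its low level was not tested.

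J-domain partners other than DNAJB1 were 4 higher and 7 lower of 13 tested (median −0.20). DNAJC7 rose by 0.71, DNAJC21 by 0.30 and DNAJC2 by 0.15. The DNAJC21 call was lost with offsets for GC content and length (log2 fold change 0.11, adjusted p = 0.107) and the DNAJC2 call with library size alone (0.041, adjusted p = 0.449). DNAJB5 fell by 1.48, DNAJB4 by 0.95 and DNAJC9, a histone-binding J-domain protein, by 0.70. Thus DNAJB4 and DNAJB5, the closest relatives of DNAJB1 in the list, moved against it. The exchange factors and BAG proteins were 3 higher and 2 lower of 6 (median 0.16). BAG4 rose by 0.72, BAG1 by 0.41 and BAG5 by 0.34, all opposite to BAG3, whereas HSPBP1 fell from 101.9 to 41.3 CPM (−1.31) and BAG6 fell by 0.67.

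HSP90 co-chaperones were 6 higher and 12 lower of 20 (median −0.16). With offsets for GC content and length they were 6 higher and 9 lower, with a median of −0.029. FKBP4, an immunophilin of steroid receptor complexes, rose from 202.9 to 354.2 CPM (log2 fold change 0.80), FKBP5 rose by 0.57 and TOMM34 by 0.49. CDC37L1, a relative of the kinase co-chaperone CDC37, fell from 54.8 to 17.9 CPM (−1.61). ST13, the HSP70-interacting protein HIP, fell from 203.4 to 114.5 CPM (−0.83), and PIH1D1 of the R2TP complex fell by 0.72. Of the other small heat shock protein genes only 2 of 9 were tested and both fell. HSPB8, the partner of BAG3, fell from 154.7 to 80.2 CPM (−0.95) and HSPB11, also known as an intraflagellar transport protein, fell by 0.32, a call that the offsets for GC content and length did not keep (adjusted p = 0.0606).

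The TRiC chaperonin and prefoldin were 2 higher and 6 lower of 15 (median −0.06). CCT4 rose by 0.13 and PFDN5 by 0.12, calls that library size alone did not keep (0 higher and 10 lower of 15). With offsets for GC content and length the list had 4 higher and 4 lower, and its median turned to 0.033. CCT6B fell from 3.12 to 0.81 CPM (−1.91), PFDN6 fell by 0.72 and PFDN4 by 0.32, the last turning to 0.03 with offsets for GC content and length. The mitochondrial chaperones split, with 2 higher and 4 lower of 9 (median −0.05), or 3 higher and 4 lower with a median of 0.065 with offsets for GC content and length. The chaperonin pair HSPD1 and HSPE1 rose, from 653.2 to 926.3 CPM (0.50) and from 127.9 to 246.5 CPM (0.95). The mitochondrial HSP70 gene HSPA9 fell from 1340.0 to 808.8 CPM (−0.73), its J-domain partner DNAJA3 fell by 0.62 and the exchange factor gene GRPEL2 by 0.48.

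Other stress-induced HSF1 targets were 4 higher and 5 lower of 9 (median −0.12). HMOX1, heme oxygenase, rose from 818.6 to 1991 CPM (log2 fold change 1.28). IER5, which helps to activate HSF1, rose by 0.44, and ZFAND2A rose by 0.38. DEDD2 fell by 0.69, CACYBP by 0.41 and the polyubiquitin gene UBB by 0.29. Within this list, as among the 10 genes, members known for induction by heat thus lay on both sides of 0.

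**Figure D5:**
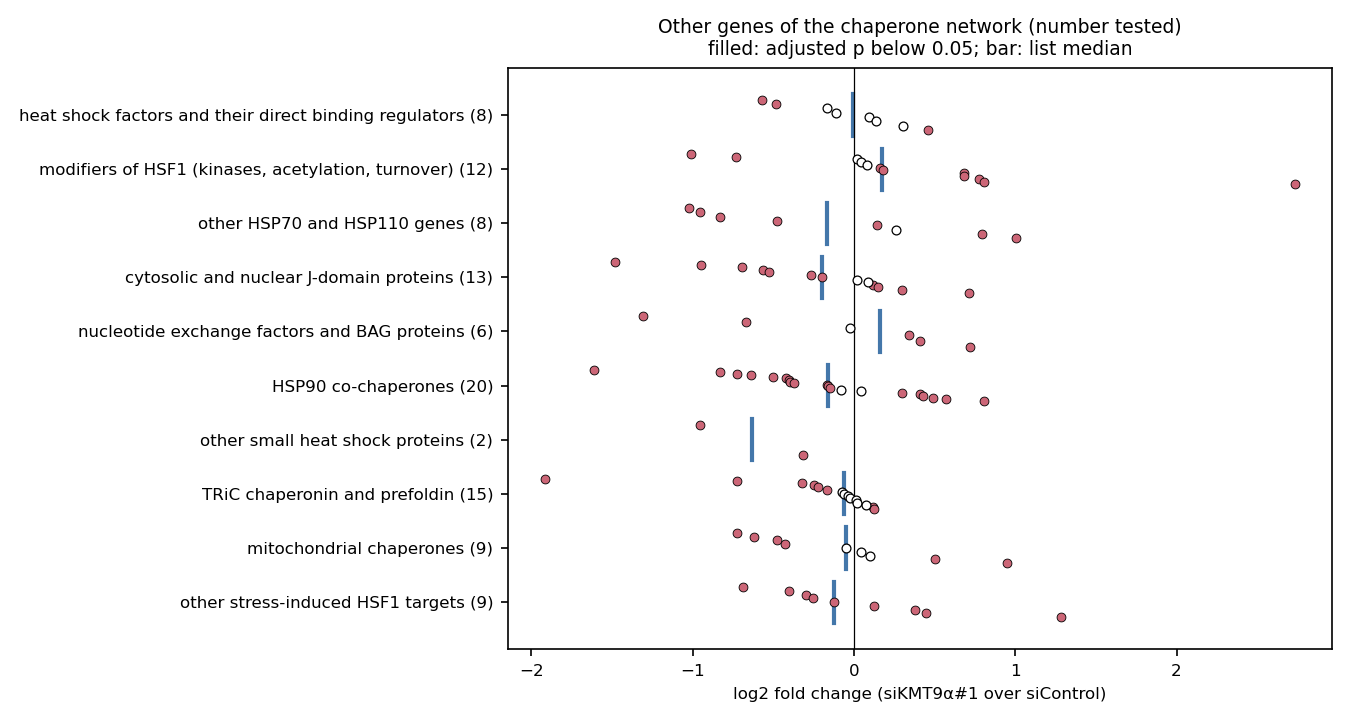
Log2 fold changes of siKMT9α#1 over siControl (x axis) for the 102 tested genes of 10 chaperone lists; each point is 1 gene, filled where the adjusted p was below 0.05, and blue bars are list medians. Most lists hold genes on both sides of 0, with medians from −0.64 (other small heat shock proteins) to 0.17 (modifiers of HSF1).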

How the data were processed

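RNA-Seq of 6 A549 samples was analysed, 3 per group, grouped by the sample labels. The submitters' processing notes name STAR, HOMER, edgeR and hg19. The authors deposited estimated counts per RefSeq transcript, not normalized (36.4% of values were not whole, and every value was a multiple of 0.5). The deposited table also holds a fold change (a ratio) and p-values, raw and adjusted, from the authors' comparison, which were not used. Strand use, library type and counting options are not given in the sources used here. Of 38767 rows, 1182 without a symbol and counts were left out, which left 37585 transcripts of 23180 symbols.

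Counts were rounded, and edgeR 4.0.16 (R 4.3.3) was run on them (TMM, filterByExpr, quasi-likelihood F test, two-sided, Benjamini-Hochberg adjustment over 13877 genes). The standard error was the size of the log2 fold change divided by the square root of F. Shares of 50-base windows, GC content and annotation came from GENCODE on GRCh37, which matched 22479 symbols, and promoter sequences came from RefSeq on GRCh38.p14. Exact permutation tests used scipy 1.17.1. The fit was tested on simulated counts in which 200 genes were changed. That is far fewer than were called in the data, so the simulation does not test the scaling used here. The alternatives were other edgeR tests, DESeq2 1.42.0, other scaling, filters and rounding, every transcript, HSPA1A and HSPA1B summed, GC and length offsets, the replicate block and each sample left out.

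All 10 genes are named, and N6AMT1, HSF2 and HSPA6 are given whatever their values. From each list up to 3 genes with the largest positive and up to 3 with the largest negative log2 fold change are named, among genes with an adjusted p below 0.05, no overlap and at least 1 CPM in 1 group. DGAT1, CD68 and the single A549 and epithelial markers were named after their values were seen. The genes and lists were chosen with earlier results of these data known.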

Additional observations from a re-analysis of the deposited data

How the results depend on the processing

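Over the alternatives, 382 values kept their direction and their side of the threshold or stayed within 1.5 times the reported count, and 9 did not. HSF1 had a log2 fold change of −0.0851 (adjusted p = 0.13) with GC and length offsets and −0.0846 (adjusted p = 0.166) with these offsets and the replicate block. HSP90AA1 was −0.0818 with library size alone and −0.00363 to 0.0739 with 1 sample left out, below 0 only without siControl replicate 2. HSP90AB1 was −0.0229 with library size alone, 0.0949 with DESeq2 (adjusted p = 0.0463), and 0.0695 to 0.117 with 1 sample left out. The count of members called higher was 2 with DESeq2 and 1 to 2 with 1 sample left out, the second being HSP90AB1. The cause was not tested. Replicate numbers are shared by the groups, but deviations of same-numbered samples correlated at −0.16, 0.06 and −0.13, so they were not taken as pairs. With the replicate block 8 members were called at the adjusted threshold and 6 at the stricter one, and 75 list genes were called in place of 78. Library pairs within a group differed by more than counting noise (chi-square per gene 1.35 to 5.19, lowest for siKMT9α replicates 1 and 2). This cannot tell separate cultures from separate preparations of the same RNA. Every library was counted as a sample because its label calls it a biological replicate. The common biological coefficient of variation in the fit was 4.47%. Intervals rest on 3 samples per group, and genes under a few CPM, such as CCT6B and HSPA1L, rest on few reads. The edgeR fit also pools variance information across genes (median prior degrees of freedom 14.6). Its intervals and p-values thus do not rest on the spread of each gene alone.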
